A study of Mus musculus with 5 samples.

Results

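Clusterin (Clu) and 8 other genes that mark regenerating or fetal-like epithelium were followed in mouse hepatobiliary organoids: the annexins Anxa1, Anxa2 and Anxa3, the Ly6 surface proteins Ly6a (Sca-1) and Ly6e, mesothelin (Msln), and the cytokines Il33 and Il18. They are a list of 9 symbols, matched by name, of the 52029 genes in the shared count table, and all 9 are in both deposited tables. All 9 were among the 15899 genes that passed the low-count filter. Organoids were grown from wild-type primary mouse liver stem/progenitor cells in a medium shared by every group, which held EGF, the kinase inhibitor Y-27632, heparin, the supplement ECGS, nicotinamide, serum replacement and antibiotics. The 2 libraries alone, M11 and M12, came from passage 1 and day 10. The 3 libraries with liver endothelial cells came from passage 8 and day 10, so co-culture and passage cannot be told apart in any difference below. The co-culture libraries M9 and M10 share a table with M11 and M12, while the third has a table of its own, with RefSeq in place of Ensembl identifiers. Any difference between the third library and the others therefore cannot be told apart from a difference of table, annotation or counting.

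When epithelium of the gut or the bile ducts is injured, surviving cells can switch on genes that are otherwise seen in fetal tissue, and Clu, Ly6a and Anxa1 are among the most used markers of that state. Clusterin is a secreted chaperone. Annexins bind membrane phospholipids in the presence of calcium, and Ly6 proteins are small molecules tethered to the outer cell surface by a lipid anchor. Interleukin-33 is a nuclear alarm cytokine released by damaged cells, and interleukin-18 is a relative that inflammatory caspases cut into its active form.

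The libraries held 26466739 to 58853737 counts. Nothing in the labels says that libraries of a group came from separate cultures, so the p-values measure only how far these libraries vary, and that variation may be technical. Within each pair the libraries differed beyond counting noise (chi-square per degree of freedom 37.1 for M11 and M12, 103 for M9 and M10). The bile duct marker Epcam was at 529 to 713 CPM in the 4 libraries of the shared table (counts scaled to a common library size, the usual CPM). Of the 27 endothelial genes listed as markers of the cells named in the co-culture label, 17 were under 1 CPM in each of these 4 libraries, and 6 had no count in M9 and M10. Pecam1, the vascular adhesion molecule, had 1 and 2 counts alone, 2 in M9, 2 in M10 and 10 in the remaining co-culture. Other genes of the list were well above 0 and are given beside Ly6a.

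Of the 15899 genes tested with edgeR's quasi-likelihood test, 356 passed a Benjamini-Hochberg adjusted p of 0.05, which is 2.24%. None of the 9 genes did. At an unadjusted p under 0.05 there were 4 of the 9, Clu, Ly6a, Anxa1 and Ly6e, where the share of all genes was 17.5%. DESeq2 called Clu lower and Ly6a higher, against 7.86% of its genes, and edgeR at an adjusted p of 0.1 likewise had 2 of 9 against 5.22%. The median log2 fold change of the 9 was 0.37, beside 0.00058 over all genes tested. M9 and M10 both lay above M11 and M12 for Anxa1, Anxa2, Ly6a and Ly6e, 4 of 9 where 24.3% of genes did so, and below them for Clu, 1 of 9 where 25.1% did. The third library lay below both M11 and M12 for 8 of the 9 (46.0% of 14288 genes) and above both for Anxa1 alone (42.9%). Taking all 3 co-culture libraries, Clu was the 1 gene below both libraries alone in each (17.0% of genes) and Anxa1 the 1 gene above (15.2%).

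**Figure D1:**
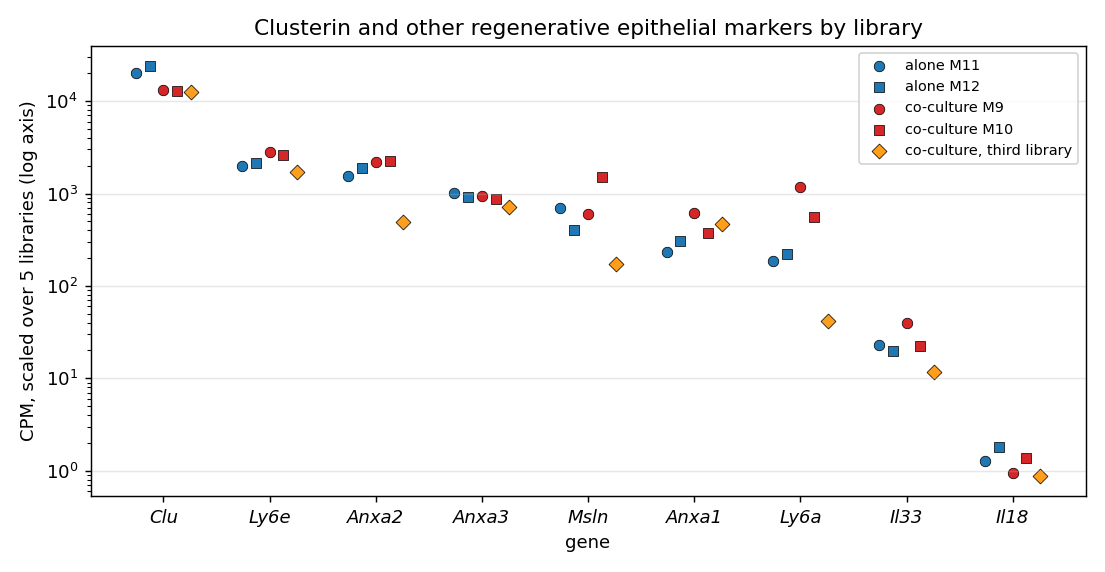
CPM of the 9 genes in each library, scaled over all 5 libraries, on a log axis. Each point is 1 library, blue for organoids alone and red or orange for co-cultures. Clu spans 12415 to 23768 CPM and Il18 stays under 2 CPM, and the orange points for Anxa2, Ly6a and Msln lie far below the others.

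Clu was the most abundant gene of the shared table by count in every one of its libraries. It had 519682 counts in M11, 655487 in M12, 420030 in M9 and 421692 in M10, and ranked 2 in the third library with 718599. Clu thus took 1.96% of all counts in M11 (95% exact binomial interval 1.958 to 1.969) and 2.25% in M12 (2.240 to 2.251). For the co-cultures the share was 1.24% (M9; 1.236 to 1.243), 1.18% (M10; 1.172 to 1.179) and 1.22% (the third library; 1.218 to 1.224). The 3 co-culture libraries lie close together and do not overlap with the 2 alone. These intervals cover counting error only.

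Scaled to CPM, Clu was at 19082 and 22480 in the organoids alone and at 12471 and 12049 in M9 and M10. The means were 20781 ± 2403 and 12260 ± 298 (SD, n = 2 each). With its SE, the log2 fold change was -0.76 ± 0.16, and edgeR gave an adjusted p = 0.0812. The third library gave a log2 difference of -0.82 from the mean of the same M11 and M12, with no replicate to test it. Since M11 and M12 serve both comparisons, these are not independent. In bulk RNA, fewer cells of a type and less RNA per cell cannot be told apart. In GRCm38 the gene (ENSMUSG00000022037) spans 65968483 to 65981547 of chromosome 14, plus strand, and no other annotated gene overlaps it. The call depended on the fit. Clu passed without M9 (-0.77, adjusted p = 0.0108, where edgeR called 15.7% of genes), without M10 (-0.73, adjusted p = 0.0376, 6.68% of genes) and without a low-count filter (adjusted p = 0.00261, 4.92% of genes). It did not pass without M11 (adjusted p = 0.363), without M12 (adjusted p = 0.585) or with all 5 libraries (adjusted p = 0.528).

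Among 6259 genes whose mean log2 CPM was 5 or more, those whose profile over the 4 libraries of the shared table lay near that of Clu included Dzip1l, Esd, Aldh7a1 and Slc29a1. Likeness here is the Euclidean distance of centred log2 CPM, 0.080 for Dzip1l, 0.134 for Esd, 0.144 for Aldh7a1 and 0.149 for Slc29a1. A profile over 4 libraries tells genes apart poorly, and the third library was not used for it. Dzip1l lay above M11 and M12 there, by 0.26 on the log2 scale, while Esd, Aldh7a1 and Slc29a1 differed by -1.32, -1.41 and -3.22.

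Levels of different genes were compared only per length, as CPM per kilobase of annotated exon. In the organoids alone Clu stood at 6046 ± 699 on this scale (SD, n = 2), far above Ly6e (516 ± 27.8) and Anxa2 (436 ± 67.3), a neighbouring pair whose means lay further apart than either SD. Anxa3 followed at 251 ± 18.6. Msln (168 ± 61.7) and Ly6a (160 ± 21.1) did not differ beyond their spread, and Anxa1 came next at 86.7 ± 16.9. Il33 (6.94 ± 0.769) and Il18 (1.42 ± 0.345) were the lowest. In M9 and M10 the level of Ly6a was 680.1 ± 351, a spread that took in Ly6e (668 ± 39.4), Anxa2 (560.4 ± 1.26) and, with its own wide error, Msln (320 ± 193). The exon length counts every annotated isoform, so genes with long, little used isoforms appear lower on this scale.

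**Figure D2:**
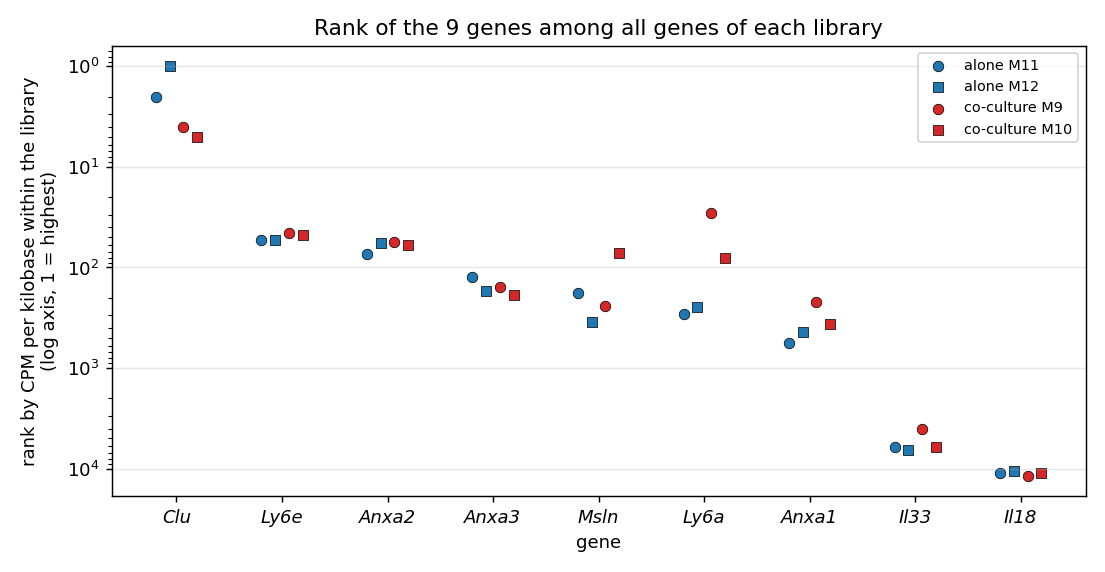
Rank of the 9 genes by CPM per kilobase of exon among all genes of each library of the shared table, on an inverted log axis where 1 is the highest. Each point is 1 library. Clu ranks 1 to 5 in all 4 libraries, and Ly6a ranks 290 and 250 alone against 29 and 81 in M9 and M10.

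Ly6a is a surface protein known as Sca-1, and it had the greatest difference of the 9 genes. It was at 174 CPM in M11, 210 in M12, 1118 in M9 and 521 in M10. Both co-culture libraries lay above both alone, and they differed from each other 2.15-fold. The log2 fold change was 2.09 ± 0.37 (SE; adjusted p = 0.0559, edgeR), or 4.26-fold. It was called without M9 (1.45, adjusted p = 0.000383), without M10 (2.54, adjusted p = 4.2e-05) and by DESeq2 (adjusted p = 2.3e-07), but not without M11 (adjusted p = 0.298), without M12 (adjusted p = 0.284) or with all 5 libraries (adjusted p = 0.67). The third library differed in the opposite direction. On the scale over all 5 libraries Ly6a was at 41.4 CPM there, against 185 and 222 CPM in the organoids alone, a log2 difference of -2.29.

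Ly6a (ENSMUSG00000075602) spans 74994877 to 74998031 of chromosome 15 in GRCm38, minus strand, within a cluster of Ly6 genes. Its lowest coordinate is 39.8 kb from that of Ly6e and 49.1 kb from that of Ly6c1, a near copy that endothelium and some blood cells also make. Over the coding sequences of transcripts Ly6a-201 (402 bases) and Ly6c1-201 (393 bases), 81.8% of 402 aligned positions are identical, with a longest identical run of 48 bases. The first 90 coding bases, 86 of them identical, are shown so that the pair can be compared. Capitals mark the bases that differ, and both read 5′ to 3′ from the start codon on the minus strand. The Ly6a stretch joins chr15:74997535-74997604 to chr15:74996549-74996568, and the Ly6c1 stretch joins chr15:75048442-75048511 to chr15:75047450-75047469, from the GENCODE M21 transcripts.
Ly6a: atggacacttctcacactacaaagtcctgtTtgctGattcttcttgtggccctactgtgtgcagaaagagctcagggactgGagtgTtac
Ly6c1: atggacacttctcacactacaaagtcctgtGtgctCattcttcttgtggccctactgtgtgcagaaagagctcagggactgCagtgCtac

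Of the 1297 distinct 50-base windows of the Ly6a transcripts, 246, or 19.0%, also occur in a transcript of another gene, with Ly6c1 and Ly6i leading. The share was 0 for Clu, Anxa1, Anxa2, Ly6e, Il33 and Il18, 1.79% for Anxa3 and 2.89% for Msln. The library kit keeps strand, per the labels' protocols, but how the authors' counting divided reads between Ly6a and Ly6c1 is not given in those sources, and the split between these genes is uncertain. For Ly6c1 the estimated counts were 11.01 (M11), 17.01 (M12), 565 (M9), 262 (M10) and 21 (the third library). It rose by 4.60 ± 0.56 on the log2 scale (adjusted p = 0.0251, edgeR) in M9 and M10. Per 100 counts of Ly6a there were 0.232 and 0.277 of Ly6c1 in the organoids alone, 1.501 and 1.44 in M9 and M10, and 0.877 in the last library. The call of Ly6c1 was lost without M11 (adjusted p = 0.134), without M12 (adjusted p = 0.173), with limma-voom (adjusted p = 0.059) and with all 5 libraries (adjusted p = 0.5), and its log2 fold change was 3.92 without M9.

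Ly6e, a broadly expressed surface protein induced by interferon, was at 1877 (M11) and 2026 CPM (M12) alone, against 2633 (M9) and 2422 CPM (M10) in co-culture. The groups did not overlap, but the log2 fold change of 0.37 ± 0.15 did not pass (adjusted p = 0.276, edgeR). The third library lay below both alone, with a log2 difference of -0.28. In the cluster around Ly6a, 7 of the 17 Ly6 genes looked up were tested, and the other 10 stayed at or below 0.356 CPM. Of the 7, 6 had a positive fold change, Ly6i at -0.16 ± 0.97 being the exception. The third library lay below both libraries alone for all 7, where 46.0% of 14288 genes did so. Beyond Ly6a and Ly6e these include Psca at 3.26 ± 0.68 (adjusted p = 0.0807) and Ly6d at 1.5 ± 0.40 (adjusted p = 0.14). Over the whole list of 26 other Ly6 and related genes, 13 were tested, 2 rose (Ly6c1 and Lypd8) and none fell, with a median of 0.81, against -1.53 in the third library. Lypd8, a protein that keeps bacteria off the colon surface, had 1 and 4 counts alone against 1250 (M9), 209 (M10) and 935 (the third library; 7.87 ± 1.23 in M9 and M10; adjusted p = 0.0424), so that its fold change rests on 5 counts in the organoids alone. Its call was lost without M11 (7.26, adjusted p = 0.217), without M12 (9.05, adjusted p = 0.24), with limma-voom (7.31, adjusted p = 0.203) and without a low-count filter (adjusted p = 0.347), and its value was 6.03 without M9 and 8.65 without M10.

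**Figure D3:**
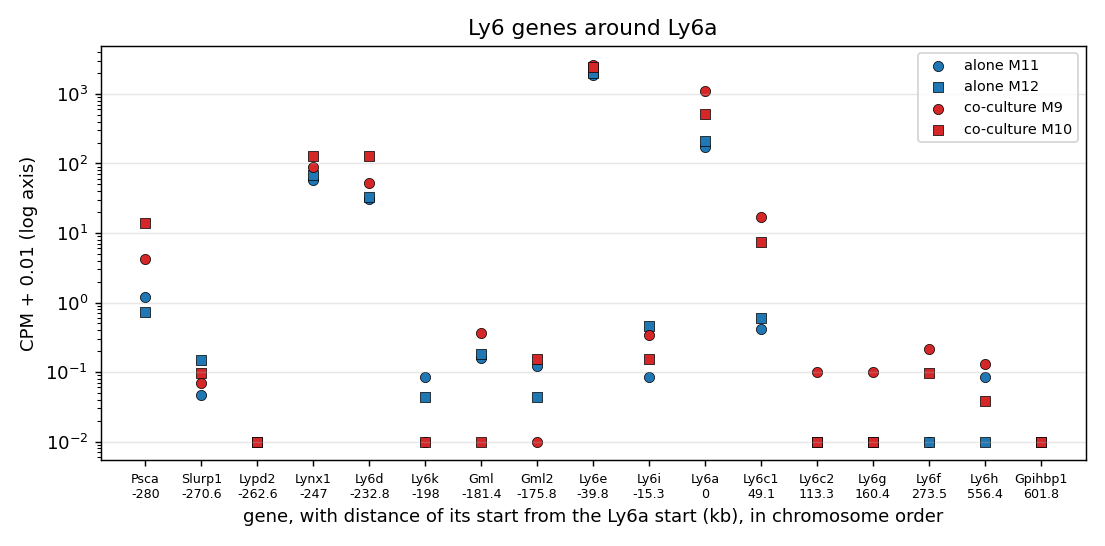
CPM of 17 Ly6 family genes on a log axis, in chromosome order. Below each name is the distance in kb of its lowest coordinate from that of Ly6a. Each point is 1 library of the shared table, and 0.01 was added so that 0 can be drawn. Ly6e, Ly6a, Lynx1 and Ly6d are well above the rest, and Ly6c1 separates the red from the blue points.

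Ly6a and Ly6e also respond to interferon, and Ly6a marks some endothelial cells. Of 29 interferon-stimulated genes tested, none rose and 1 fell, Ifit2, by -2.94 ± 0.49 (adjusted p = 0.0483, edgeR). The call of Ifit2 was lost without M11 (adjusted p = 0.262), without M12 (adjusted p = 0.238) and with limma-voom (adjusted p = 0.053). The median of that list was -0.51 in M9 and M10 and -1.06 in the third library. Of the 27 endothelial genes, 13 were tested, 5 had a positive fold change, 2 rose (Ptprb and Ly6c1) and 1 fell (Podxl). Their summed level was 133 (M11) and 147 CPM (M12) alone, against 145 (M9) and 102 CPM (M10) in co-culture. On the scale over all 5 libraries the sum was 28.6 CPM in the third library, against 142 and 155 CPM in M11 and M12. Ptprb, a vessel phosphatase, rose by 2.17 ± 0.19 (adjusted p = 0.0137), while the third library, at 10.4 CPM against 9.86 and 9.68, differed by 0.09. Podxl, a sialomucin of vessels and other polarised cells, fell by 1.51 on the log2 scale (SE 0.24, adjusted p = 0.0435, edgeR), with the third library at -3.77. Most of the summed level alone was Podxl, at 86.7 (M11) and 110 CPM (M12), against 40.8 (M9) and 28.2 CPM (M10) in co-culture. On the scale over all 5 libraries Podxl was at 7.53 CPM in the third library, against 92.0 and 117 CPM in M11 and M12. Without M11 and without M12, respectively, the adjusted p was 0.081 and 0.144 for Ptprb and 0.124 and 0.284 for Podxl.

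The other 3 endothelial genes with a positive fold change, named after their values were seen, had both M9 and M10 above M11 and M12 but did not pass. Mrc1, a mannose receptor of liver sinusoids and macrophages, was at 4.002 and 5.25 CPM alone, 25.9 in M9 and 10.4 in M10 (adjusted p = 0.112). Flt1, a VEGF receptor, had 0.991 and 1.20 CPM alone, 3.35 in M9 and 1.97 in M10 (adjusted p = 0.254), and Egfl7 stayed between 6.68 and 9.26 CPM (adjusted p = 0.518). All 3 lay below both libraries alone in the third library, as 46.0% of 14288 genes did. Thus 5 of the 13 tested endothelial genes had both M9 and M10 above M11 and M12, where 24.3% of all genes did so. The rest had a negative fold change. Of the rest, Podxl, Sox17, Cd34 and Fcgr2b had both below, where 25.1% of all genes did so. Sox17 was at -2.91 ± 0.74 (adjusted p = 0.122, edgeR) and Cd34 at -3.57 ± 1.07 (adjusted p = 0.175, edgeR). Fcgr2b was at -1.51 ± 0.86 (adjusted p = 0.453, edgeR), and these 3 were also named after their values were seen. What part endothelial genes had in the value of Ly6a was not tested.

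Annexin A1 is an anti-inflammatory, calcium-dependent membrane protein, and Anxa1 was the 1 gene of the 9 above both libraries alone in all 3 co-cultures. It was at 217 CPM in M11, 287 in M12, 577 in M9 and 343 in M10. The log2 fold change was 0.87 ± 0.29 (adjusted p = 0.203, edgeR). It was 0.84 above the organoids alone in the third library. It was called without M10 (1.20, adjusted p = 0.0063) and without a low-count filter (adjusted p = 0.0178), and was at 0.46 without M9. Anxa1 (ENSMUSG00000024659) spans 20373428 to 20390944 of chromosome 19 in GRCm38, minus strand. A noncoding gene, 1500015L24Rik, spans it on the opposite strand, and since the strand setting of the counting is not given, reads of the pair may not be told apart.

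Annexin A2 forms a complex with the small protein S100A10 at the inner face of the plasma membrane. Anxa2 had 1449 CPM in M11 and 1804 in M12, against 2088 (M9) and 2094 (M10), for a log2 fold change of 0.36 ± 0.17 (adjusted p = 0.349, edgeR). In the third library it was at 495 CPM, on a scale where M11 and M12 were at 1538 and 1908, a log2 difference of -1.79. Its partner S100a10 was at 266 and 330 CPM alone, 339 (M9) and 270 CPM (M10) in co-culture, and -1.19 in the third library. With all 5 libraries the fold change of Anxa2 turned to -0.06. Anxa3, another calcium-dependent annexin, was at 961 (M11) and 865 CPM (M12) alone, against 896 (M9) and 801 CPM (M10) in co-culture (-0.11 ± 0.15; adjusted p = 0.791), with overlapping groups, and at -0.43 in the third library.

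None of the 9 other annexin genes passed with edgeR (3 at an unadjusted p under 0.05, where 17.5% of all genes were). DESeq2 called 2 higher, where it called 7.86% of its genes in either direction, and limma-voom called 0. Their median was 0.22 in M9 and M10 and 0.21 in the third library. Anxa4, found in many epithelia, was at 0.48 ± 0.19 (adjusted p = 0.27) and Anxa5 at -0.29 ± 0.15 (adjusted p = 0.404), and the third library was at 0.84 and 0.23. Anxa13, named after its values were seen, was at 0.91 ± 0.16 (adjusted p = 0.0523) and 1.27. Among the annexin partners 5 of 8 were tested and none passed with edgeR (3 at an unadjusted p under 0.05). DESeq2 gave 2 higher and limma-voom 0, beside the same shares over all genes of 17.5% unadjusted and 7.86% with DESeq2. S100a6, a calcium sensor, was at 0.64 ± 0.14 (adjusted p = 0.0901) and at -1.73 in the third library. Ahnak, a giant scaffold bound by the annexin A2 complex, was at 0.96 ± 0.31 (adjusted p = 0.198; 1.35 without M9 and 0.46 without M10) and at -0.91 in the third library. The median of the 5 was 0.64 in M9 and M10 and -1.19 in the third library, which lay below the mean of the organoids alone for each of them. The formyl peptide receptors Fpr1, Fpr2 and Fpr3, through which secreted annexin A1 acts, were not tested for lack of counts.

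**Figure D4:**
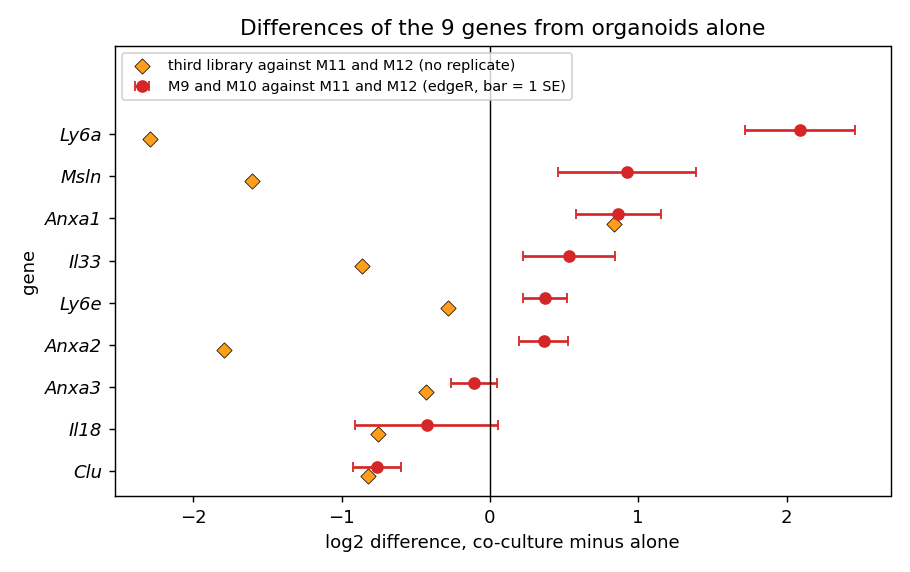
Log2 difference of the 9 genes from the organoids alone. Red points give M9 and M10 with bars of 1 SE (edgeR, n = 2 against 2) and orange diamonds the third library, which has no replicate. For Clu and Anxa1 the red and orange points lie together, and for Ly6a they stand at 2.09 and -2.29.

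Mesothelin is a surface protein of mesothelium that some epithelia also carry. It was at 650 CPM in M11, 382 in M12, 561 in M9 and 1397 in M10, so that M10 exceeded M9 2.49-fold, where the group fold change was 1.90, and the groups overlapped. The log2 fold change was 0.92 ± 0.46 (adjusted p = 0.388, edgeR), at 1.45 without M9 and 0.12 without M10. In the third library it was at 173 CPM, against 689 and 404 CPM in M11 and M12 on that scale, a log2 difference of -1.61. Of the 12 genes of the mesothelial list, 8 were under 1 CPM in all 4 libraries and 5 were tested, none called higher. Of the 5, 2 had a positive fold change, and the median was -1.51. The 2 were Cpe (0.19) and Upk3b (2.28 ± 0.87, adjusted p = 0.259, edgeR). Upk3b had 4 and 1 counts alone, 11 in M9 and 20 in M10. Muc16, the binding partner of mesothelin, was at or near 0 and was not tested. The 2 genes of the mesothelial list that fell were Podxl and C3, the central complement protein, at 1332 (M11) and 2315 CPM (M12) alone, against 63.2 (M9) and 13.9 CPM (M10) in co-culture (-5.57 ± 0.81; adjusted p = 0.0354). The third library was far less low for C3, at 629 CPM against 1414 and 2447 CPM on its scale, a log2 difference of -1.57, and the value with all 5 libraries was -3.03. The call of C3 was lost without M11 (adjusted p = 0.0887), without M12 (adjusted p = 0.158) and without a low-count filter (adjusted p = 0.334), and its value was -7.03 without M9 and -4.85 without M10.

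In GRCm38 Msln spans 25748613 to 25754378 of chromosome 17, minus strand. Anxa2 spans 69453620 to 69491795 and Il18 50554827 to 50581840 of chromosome 9, both on the plus strand, and each has 1 exon touched by a gene of the opposite strand, Gm16144 and Bco2. Anxa3 spans 96793339 to 96845966 of chromosome 5, Ly6e 74955051 to 74959905 of chromosome 15 and Il33 29925114 to 29960718 of chromosome 19, all on the plus strand.

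Both cytokine genes were low. Il33 was at 21.6 CPM in M11, 18.5 in M12, 37.1 in M9 and 20.9 in M10, and M10 lay between M11 and M12. The log2 fold change was 0.53 ± 0.31 (adjusted p = 0.461, edgeR), at 0.07 without M9 and 0.89 without M10, where it was called (adjusted p = 0.0296). In the third library it was at -0.86. Il18 had 33 and 50 counts alone, 30 and 45 in the tested co-cultures and 51 in the remaining one, so at 0.891 to 1.71 CPM no difference was detectable (-0.43 ± 0.48; adjusted p = 0.725). Casp1, which cuts the interleukin-18 precursor, had 5 and 8 counts alone and 1 and 0 in M9 and M10, and was not tested. It had 48 counts in the third library, 0.829 CPM against 0.195 and 0.290 CPM alone on that scale.

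Of 19 other genes of the interleukin-33 and interleukin-18 axis that were tested, 2 rose and 2 fell. Over all genes tested the share called in either direction was 2.24%. Il1rap, the chain shared by the receptors for interleukin-1 and interleukin-33, had 24.9 CPM in M11 and 23.0 in M12, against 2.02 (M9) and 0.571 (M10), for a log2 fold change of -4.21 ± 0.58 (adjusted p = 0.033, edgeR). The third library was also lower, at -3.75. Il1r1, the interleukin-1 receptor, was at 156 (M11) and 147 CPM (M12) alone, against 71.4 (M9) and 71.4 CPM (M10) in co-culture (-1.08 ± 0.14; adjusted p = 0.0293), but the third library was at 1.24 above. Naip5, a sensor of bacterial flagellin with close paralogs that may share its reads, was at 3.41 (M11) and 7.61 CPM (M12) alone, against 58.3 (M9) and 57.1 CPM (M10) in co-culture (3.38 ± 0.39; adjusted p = 0.0225), with the third library at 3.19. Gsdmd, the pore protein of pyroptosis, named as the remaining call of the list after its values were seen, rose by 0.85 ± 0.14 (adjusted p = 0.047) and was at -0.20 in the third library. Il1rl1, the interleukin-33 receptor, had 22 and 86 counts alone and 6 and 3 in M9 and M10 (adjusted p = 0.0991). The median of the list was -0.72. Without M12 none of these was called, and without M11 Il1rap (adjusted p = 0.144) and Il1r1 (adjusted p = 0.202) were lost. The call of Gsdmd was lost without M11, with limma-voom and with library totals. Il1rap was at -5.37 without M9 and -3.56 without M10. Naip5 was at 4.08 without M12 and just missed the threshold without M10 (adjusted p = 0.0503).

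Of 14 genes listed as partners of clusterin, not all of which bind it, 12 were tested, 1 rose and 1 fell. Sorl1, a sorting receptor, was at 33.2 (M11) and 32.4 CPM (M12) alone, against 91.4 (M9) and 111 CPM (M10) in co-culture (1.63 ± 0.17; adjusted p = 0.019, edgeR), with the third library at 1.46. Apoe, a lipid carrier that shares receptors with clusterin, was at 34.2 (M11) and 105 CPM (M12) alone, against 3.24 (M9) and 2.0 CPM (M10) in co-culture (-4.73 ± 0.63; adjusted p = 0.0302), with the third library at -3.75. The adjusted p of Sorl1 was 0.11 without M11 and 0.178 without M12. Apoe was at -5.32 without M11 and at -3.71 without M12 (adjusted p = 0.0983), and was also not called without M9 (adjusted p = 0.314), without M10 (adjusted p = 0.445), with limma-voom (adjusted p = 0.076) or without a low-count filter (adjusted p = 0.267).

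Of the 24 other fetal-like or regenerative genes tested, 2 rose in M9 and M10, Krt7 and Ecm1, none fell and 22 did not pass. A positive fold change was seen for 10, and the median was -0.15. M9 and M10 both lay above M11 and M12 for 5 of the 24 and below them for 3. Over all genes the shares were 24.3% and 25.1%. Among the 3 were Spp1 (-1.44 ± 0.31, adjusted p = 0.0825, edgeR) and Krt23 (-1.18 ± 0.23, adjusted p = 0.0706, edgeR), named after their values were seen. Krt7, a biliary keratin, rose by 1.11 ± 0.15 (adjusted p = 0.0303, edgeR) and was at -0.80 in the third library. Ecm1, a secreted matrix protein, rose by 1.27 ± 0.21 (adjusted p = 0.049) and was at -1.67. The third library lay below both libraries alone for 22 of the 24, where 46.0% of 14288 genes did so, with a median of -1.70. Without M11 the adjusted p was 0.267 for Krt7 and 0.102 for Ecm1, and without M12 it was 0.27 and 0.303; the call of Ecm1 was also lost with limma-voom and with library totals (adjusted p = 0.052 in both).

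Adult-type stem cell genes and targets of the injury-responsive factors YAP and TAZ were also counted. Of 10 adult-type stem cell genes tested, 1 rose, Prom1, by 1.19 ± 0.15 (adjusted p = 0.0264, edgeR; 1.29 in the third library). Its value was 1.11 without M11 and 1.28 without M12. None of the 10 fell, 4 had a positive fold change, and the median was -0.12. DESeq2 called 1 gene of the list higher and 2 lower. Tnfrsf19 had 39 and 172 counts alone and 0 in M9 and M10 (adjusted p = 0.0559, edgeR). Olfm4 was at -1.18 ± 0.32 (adjusted p = 0.141, edgeR) and Lrig1 at -0.47 ± 0.15 (adjusted p = 0.194, edgeR). Tnfrsf19, Olfm4 and Lrig1 were named after their values were seen. Of 14 YAP and TAZ targets tested, none rose and 1 fell, the receptor kinase Axl, from 269 and 229 CPM to 9.44 and 29.8 CPM (-3.66 ± 0.54; adjusted p = 0.0371; -5.17 in the third library). The median of these was -0.0088, and 0.15 in the third library. Axl was not called without M11 (adjusted p = 0.137), without M12 (adjusted p = 0.162) or without a low-count filter (adjusted p = 0.34), and was at -3.05 without M9 and -4.72 without M10.

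**Figure D5:**
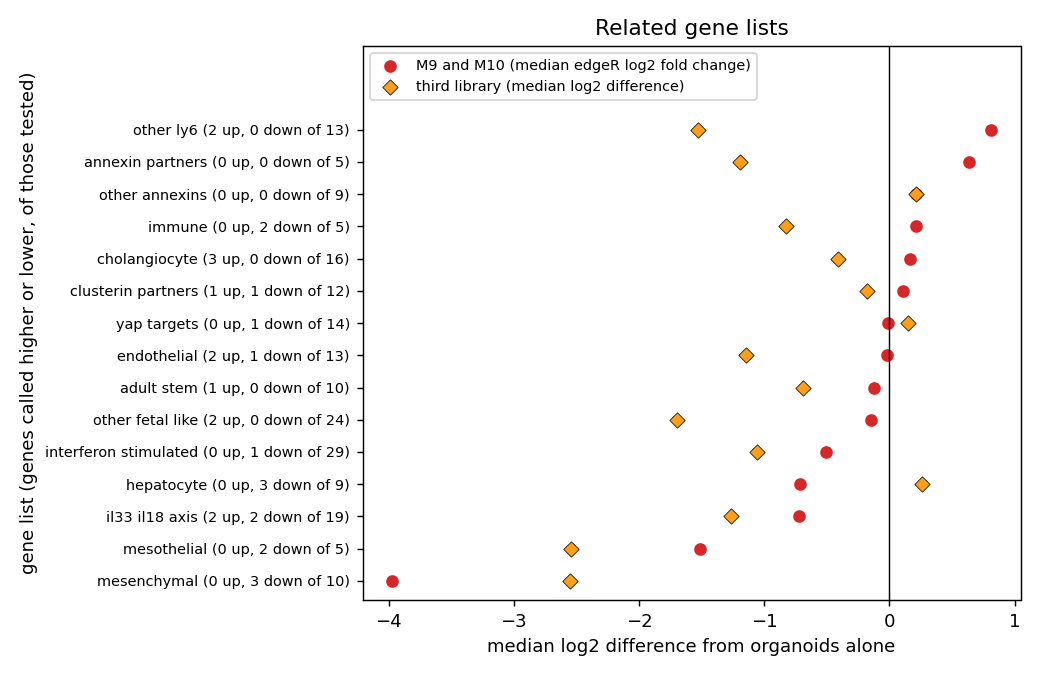
Median log2 difference from the organoids alone over the tested genes of each list, red for M9 and M10 and orange for the third library, with the number called higher or lower by edgeR beside each name. The other Ly6 genes have the highest red median, 0.81, and the mesenchymal genes the lowest, -3.97.

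Promoter sequences (RefSeq, GRCm38.p6) were at hand for 4 of the 9 genes, Anxa1, Anxa2, Il33 and Il18, and the 250 bases before each start were searched on both strands for 6 motifs: AP-1 (TGANTCA), TEAD (GGAATG), STAT (TTCNNNGAA), interferon response (GAAA, any 2 bases, GAAA), heat shock factor (GAANNTTC) and HIF (ACGTG). Printed are stretches of Anxa2 and Il33 around AP-1 and TEAD matches that touch no annotated exon, since both factors are often studied in the regenerative state. Capitals mark the match, which for the second Il33 start is on the other strand. The Anxa2 stretch is chr9:69453563-69453619 on the plus strand, and the Il33 stretches, upstream of its 2 listed starts, are chr19:29924957-29925012 and chr19:29945658-29945713 on the plus strand.
Anxa2 AP-1: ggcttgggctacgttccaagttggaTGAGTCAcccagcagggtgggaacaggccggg
Il33 TEAD, start 1: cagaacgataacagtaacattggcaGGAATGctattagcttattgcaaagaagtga
Il33 TEAD, start 2: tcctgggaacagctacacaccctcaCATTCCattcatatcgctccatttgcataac

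Counted from the start of transcription, the Anxa2 AP-1 match is at -95 to -89 and a HIF match at -137 to -133. The TEAD matches are at -131 to -126 and -107 to -102 for Il33 and at -236 to -231 for Anxa1. Unlike the printed stretches, the one around the Anxa1 match touches 1 annotated exon of its gene. Il18 had no match to the 6 motifs. Of 32817 mouse promoters of that length, 6.75% hold the AP-1 letters, 12.6% TEAD, 7.01% STAT, 2.97% interferon response, 6.69% heat shock factor and 16.6% HIF. A match describes letters, not a bound site.

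Markers of other cells that the organoids could hold moved as follows in M9 and M10, with edgeR at an adjusted p of 0.05. Of 16 bile duct genes tested, 3 rose (Krt19, Krt7 and Prom1), none fell and 10 had a positive fold change, with a median of 0.16. That median was -0.41 in the third library. DESeq2 called 5 genes of the bile duct list higher and 1 lower. Spp1, also on this list, was at -1.44 ± 0.31 (adjusted p = 0.0825, edgeR) and at -0.25 in the third library. Of 9 hepatocyte genes tested, 3 fell (Alb, Trf and Hp), 4 had a positive fold change without being called, and the median was -0.71. The 4 were Apoa1 (2.74, at 0.564 and 1.37 CPM in M9 and M10), Ass1 (1.11), Ttr (1.01) and Hnf4a (0.30). DESeq2 called 2 genes of the list higher and 4 lower. The third library had a median of 0.26 with 6 of 9 above the mean of the organoids alone. Alb, the main plasma protein, was at -7.33 ± 0.76 (adjusted p = 0.0186) in M9 and M10, at 1.13 in the third library and at -0.66 with all 5 libraries. Without M9 none of the 3 was called (adjusted p of 0.239 for Alb, 0.311 for Trf and 0.469 for Hp), without M10 likewise (0.34, 0.378 and 0.597), and with limma-voom Alb (0.0757) and Hp (0.218) were lost. Without a low-count filter Trf (adjusted p = 0.273) and Hp (adjusted p = 0.381) were lost.

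Of 10 mesenchymal genes tested, 3 fell (Col3a1, Rgs5 and Col6a3), and the summed level of that list was 49.1 (M11) and 128 CPM (M12) alone, against 34.7 (M9) and 40.0 CPM (M10) in co-culture. On the scale over all 5 libraries it was 19.7 CPM in the third library, against 52.1 and 135 CPM in M11 and M12. Most of the summed level in M9 and M10 was Reln, named after its values were seen. Reln was at 9.80 (M11) and 13.9 CPM (M12) alone, against 27.3 (M9) and 33.6 CPM (M10) in co-culture. It was the 1 tested gene of the list with a positive fold change (1.36 ± 0.26, adjusted p = 0.0661, edgeR), where the median of the 10 was -3.97. With limma-voom the calls of Col3a1 (adjusted p = 0.0776) and Col6a3 (adjusted p = 0.0597) were lost, Col6a3 just missed with upper quartile scaling, and Col3a1 was also not called without M9 (adjusted p = 0.167) or M10 (adjusted p = 0.233). Of 5 immune genes tested, 2 fell (Cd14 and Lyz2) and 3 had a positive fold change without being called. The 3 were Cd68 (0.79), Csf1r (0.47) and Itgam (0.21). The median of the immune list was 0.21, and -0.82 in the third library. The call of Lyz2 was lost with limma-voom (adjusted p = 0.109), and its value was -6.48 without M9 and -5.48 without M10. None of the calls on these cell types was made without M12, where no gene of the table passed (1438 at an unadjusted p under 0.05), or with all 5 libraries. Without M11 the calls of Alb, Trf, Hp and Col3a1 were made and those of Krt19, Krt7, Prom1, Rgs5, Col6a3, Cd14 and Lyz2 were lost. The part of these markers in the values of Clu, Ly6a, Anxa1 and Msln was not tested.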

How the data were processed

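RNA-seq libraries of total RNA were made with a stranded, ribosome-depleting kit, per the labels' protocols. Per the submitters' processing notes, which give no roles, StringTie 2.1.3b, Bowtie2 2.3.4.1, HISAT2 2.1.0, Trimmomatic 0.38 and FastQC 0.11.7 were used, with the builds mm10 and GRCh37. No source used here gives the counting tool, its strand setting or its annotation. The authors deposited estimated counts for M9 to M12 in 1 table and whole-number counts for the third co-culture library in another, per the file headers; their length-scaled columns were not used here. The third library's column carries another library number than its file, so its sample is that of the deposited record. The columns of the shared table name a group but not which sample of it.

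The 73925 rows of the shared table repeat a gene with identical values, so 1 row per gene was kept. Counts were rounded, filtered (filterByExpr), scaled with TMM and tested with edgeR 4.0.16 (R 4.3.3; quasi-likelihood, robust, Benjamini-Hochberg over all genes tested, threshold 0.05). SE is the fold change over the root of F. The third library was joined by symbol (30831 symbols, 91.8% of its counts), scaled with the other 4 and described on log2 CPM with a prior count of 2, with no test. Levels between genes are CPM per kilobase of GENCODE M21 exon, which held all 52029 gene IDs. The fit was tested on simulated data.

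The 9 genes and the 16 lists were chosen with earlier results of these data known. Named were the 9 genes, from each list up to 3 calls with the lowest p (with no call, the 2 genes of highest mean CPM), and the 5 genes most like Clu, of which 1 is not reported here. Alternatives were other scalings and filters, DESeq2 1.42.0, limma-voom (limma 3.58.1), leaving out each library, and all 5 libraries; an adjusted p of 0.1 was added after seeing the data. Sequences came from GENCODE M21 transcripts and RefSeq promoters.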

Additional observations from a re-analysis of the deposited data

How the results depend on the processing

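Over all genes, the 356 calls of edgeR became 1329 with DESeq2, 1404 without a low-count filter, 830 at an adjusted p of 0.1, 2 with all 5 libraries and 0 to 2619 when 1 library was left out. Of the 9 genes, 0 were called by edgeR, 2 by DESeq2, 2 without a filter, 2 at an adjusted p of 0.1, and 0 to 4 when 1 library was left out. With all 5 libraries Anxa2 turned to -0.060 and Il1r1 to 0.14, and Mslnl ranged from -1.12 to 1.11 when 1 library was left out. The cause was not tested. Of 406 alternative values of 34 other named genes, 283 kept their direction and side of the threshold, 96 lost the call, 25 gained one and 2 reversed. In the third library, 8 of the 9 genes stayed below the organoids alone under other prior counts and with library totals. No paired analysis was possible because the columns carry no replicate number of the titles. With 2 libraries a group, and under 2 CPM for Il18, small differences were not detectable.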
